A study of Homo sapiens with 8 samples.

Results

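The genes described here are 10 members of the AP-1 and immediate early group: FOS, FOSL1, FOSL2, JUN, JUNB, JUND, EGR1, EGR2, IER2 and IER3. They were chosen by symbol, as all probes that the platform annotation assigns to these symbols, among 20044 genes named on the array. Earlier results of these data were known when the members were chosen. For 9 of them 1 probe each was found, and all 9 were bright enough to be tested among 12384 genes. EGR2 had no probe among the named probes and was not analysed here.

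Expression was measured on 8 Illumina BeadChip arrays from SK-Hep1 and Huh7, which are established human liver cancer lines. The control and SMARCB1 knockdown groups of each line had 2 arrays each, and SMARCB1 belongs to the core of SWI/SNF, the complexes that remodel chromatin. The 4 groups were SK-Hep1 control (titled shcon, replicates 1 and 2), SK-Hep1 knockdown (titled shSMARCB1, replicates 11 and 12), Huh7 control (titled GFP_Con, replicates 1 and 2) and Huh7 knockdown (titled SMARCB1_11, replicates 3 and 4). Short hairpin RNA served for the stable knockdown, and selection was with puromycin at 1.25 µg/mL. GFP is named only in the Huh7 control titles, so the constructs used as controls may not be the same. The labels do not say whether 11 and 12 are different hairpins or whether the arrays of a group came from separate cultures, so p-values reflect array-to-array spread alone, and that spread may be technical.

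AP-1 is a family of dimeric transcription factors in which a JUN protein pairs with a FOS protein, or with another JUN protein, through a basic leucine zipper. Immediate early genes are transcribed within minutes of a growth factor, cytokine or stress signal, without new protein synthesis, and many are switched on through MAP kinases and the serum response factor. In liver, JUN and FOS proteins are known for roles in regeneration and in tumour growth.

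Values are the deposited log2 intensities, and differences are knockdown minus control on that scale with the standard error (SE), n = 2 arrays per group. Each gene's spread was estimated once over all 8 arrays of both lines, so its SE is the same in SK-Hep1 and Huh7. The test was limma, adjusted by Benjamini-Hochberg over 12384 genes, with a threshold of 0.05 for the adjusted p. The values hold almost no difference between the lines: the SD over genes of the SK-Hep1 mean minus the Huh7 mean was 0.0291, against 0.0671 expected from the replicate spread alone. Over genes, the line means were thus closer than array-to-array spread alone would leave them, so the deposited levels do not show how the lines differ. Levels were therefore not used to compare the lines or to check their labels. Whether each gene was also rescaled within a line is not known, and rescaling would alter the differences within and between lines and their SE. Of the hepatocyte genes, FGB, a fibrinogen chain, read 10.28 to 10.29 on the SK-Hep1 arrays and 10.55 on each Huh7 array. ALB, albumin, read 11.21 to 11.37 and 11.58 to 11.60. Averaged over the arrays of each line, each of the 8 hepatocyte markers was higher in Huh7. Only in FGB and ALB did the arrays of the lines not overlap. Some difference in level between the lines was thus present in these genes. The gap between replicate arrays had an SD over genes of 0.135 (control) and 0.173 (knockdown) in SK-Hep1, and of 0.103 and 0.115 in Huh7. The shared SE does not show this wider spread in SK-Hep1. SMARCB1 read 10.68 and 10.61 on control arrays of SK-Hep1 versus 9.30 and 9.67 on its knockdown arrays, and 10.84 and 10.94 on control arrays of Huh7 versus 9.22 and 9.27 on its knockdown arrays. Those differences were -1.16 ± 0.107 (adjusted p = 0.000113) and -1.65 ± 0.107 (adjusted p = 3.5e-06). Of 8 hepatocyte markers 2 rose and 0 fell in SK-Hep1, where 16.9% of all genes passed the threshold in either direction. In Huh7 1 rose and 2 fell, which is 37.5% of these markers against 39.1% of all genes. Of 5 endothelial markers only PECAM1 was tested, at -0.17 (adjusted p = 0.109) in SK-Hep1, and it fell by 0.32 (adjusted p = 0.00354) in Huh7. Of 5 immune markers, CD14 was in SK-Hep1 at 1.04 (adjusted p = 0.000398) and at -1.07 (adjusted p = 0.000103) in Huh7, CD68 at 0.61 (adjusted p = 0.000378) and -0.15 (adjusted p = 0.12), and the others were not tested. The part of these shifts in the results was not tested.

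SMARCB1 knockdown went with lower values of most of these genes in SK-Hep1 and with higher values of most of them in Huh7. In SK-Hep1, FOS, JUN, JUNB, JUND, EGR1 and IER2 fell and 0 rose, which is 6 of 9 where 8.54% of all genes fell, 8.33% rose and 16.9% changed in either direction. In Huh7, FOSL1, JUN, JUNB, EGR1, IER2 and IER3 rose and JUND fell, which is 7 of 9 where 39.1% of all genes changed, 19.5% upward and 19.6% downward. JUN, JUNB, EGR1 and IER2 changed in both lines in opposite directions, lower in SK-Hep1 and higher in Huh7. That is 4 of 9 members, against 4.3% of all genes called in opposite directions and 2.16% called with this order. Since the members were chosen with earlier results of these data known, such shares are descriptive and do not measure an excess. JUND was the 1 member that changed in the same direction in both lines, as did 4.58% of all genes. The median difference over the 9 members was -0.39 in SK-Hep1 and 0.23 in Huh7, and over all genes it was -0.0095 and 0.00077.

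**Figure D1:**
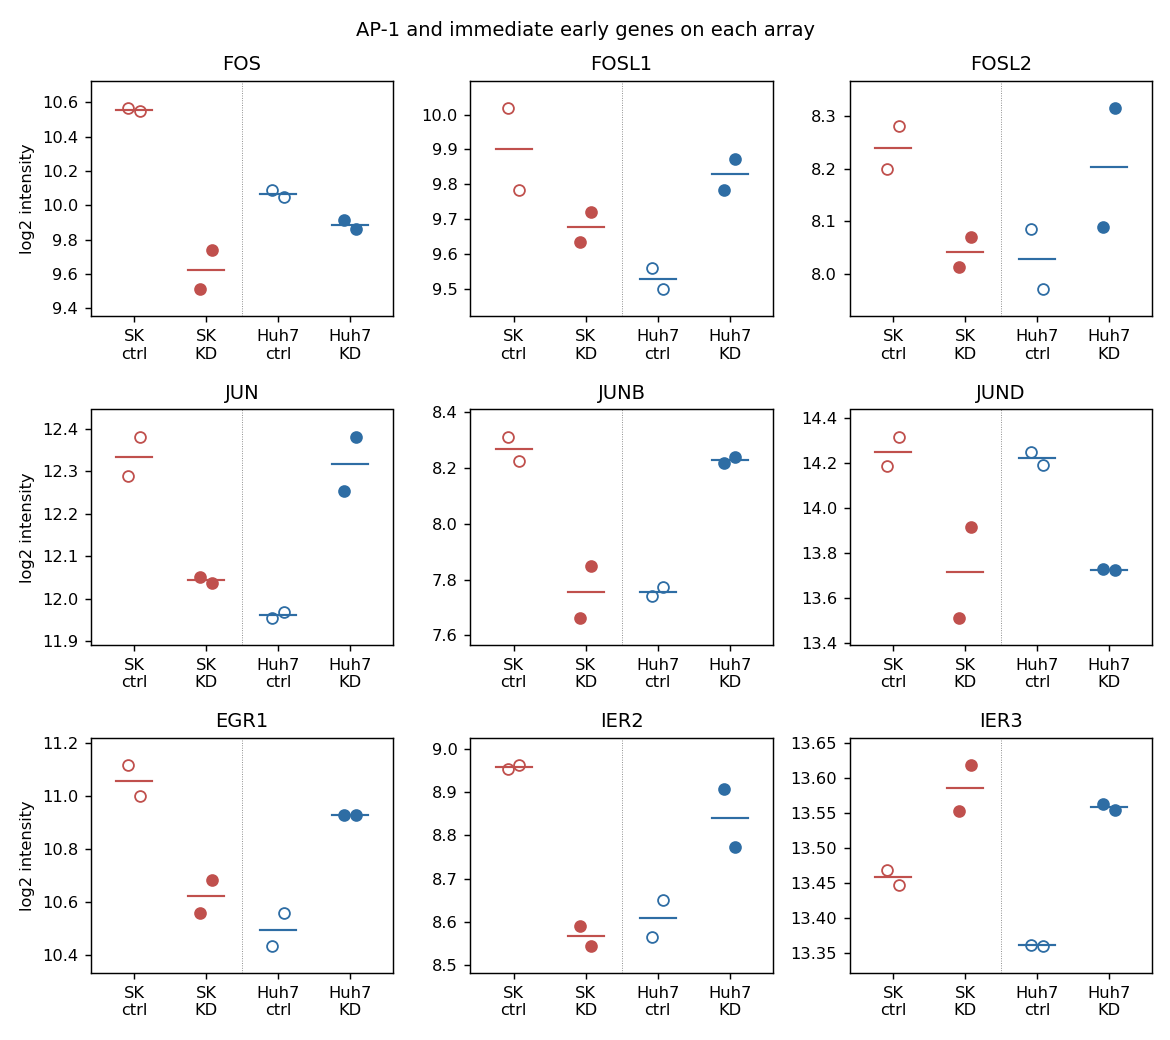
Log2 intensity of each of the 9 members (y axis, a separate range per panel) on each array, in SK-Hep1 (red) and Huh7 (blue), controls (ctrl, open points) and knockdown (KD, filled points), with the mean of each pair as a bar. JUNB, JUN, EGR1 and IER2 step down from control to knockdown in SK-Hep1 and up in Huh7, while JUND steps down in both, and levels are not comparable between lines.

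The signed knockdown difference was lower in SK-Hep1 than in Huh7 for 7 of 9 members by the test of that contrast. For JUNB and EGR1 the sizes were close and the signs opposite, while for FOS the fall was larger in SK-Hep1. Over all genes 31.4% passed this test, and 16.1% passed it in that direction. Subtracting the Huh7 from the SK-Hep1 difference, the value was largest in size for JUNB (-0.99 ± 0.11, adjusted p = 0.000184) and EGR1 (-0.86 ± 0.11, adjusted p = 0.000387). The value was -0.75 ± 0.115 for FOS (adjusted p = 0.00105), -0.64 ± 0.101 for JUN (adjusted p = 0.00121) and -0.62 ± 0.103 for IER2 (adjusted p = 0.00159). FOSL1 was at -0.52 ± 0.123 (adjusted p = 0.00951). FOSL2 passed at -0.37 ± 0.122 (adjusted p = 0.0415), a call lost without any 1 of SK-Hep1 control replicate 1 or 2, SK-Hep1 knockdown replicate 11, Huh7 control replicate 1 or 2, or Huh7 knockdown replicate 4 (adjusted p = 0.0623 to 0.167). For JUND the difference between lines was -0.04 (95% interval -0.40 to 0.31) and for IER3 -0.07 (-0.27 to 0.13), neither past the threshold.

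**Figure D2:**
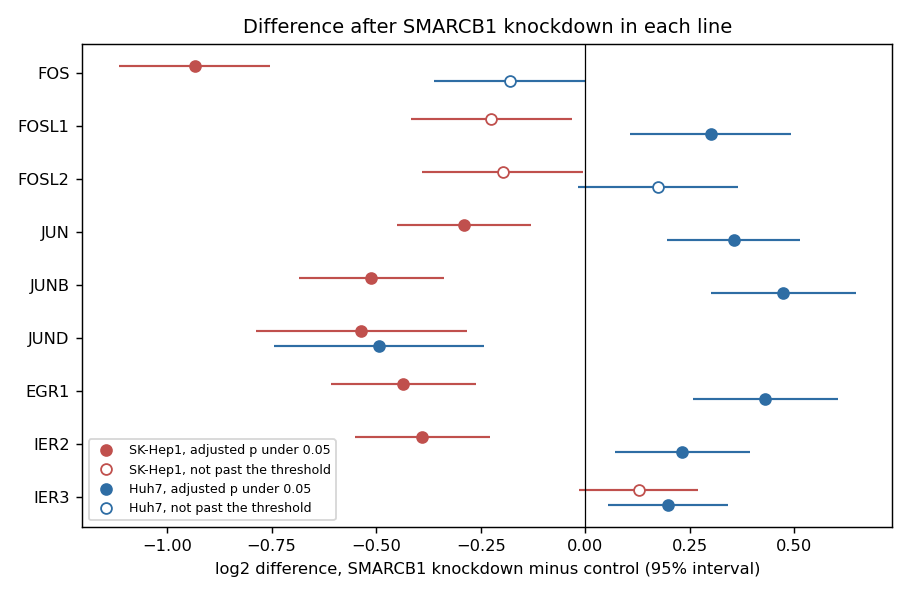
Log2 difference, knockdown minus control, for each of the 9 members (x axis) with its 95% interval from limma, in SK-Hep1 (red) and Huh7 (blue), filled where the adjusted p is under 0.05. The SK-Hep1 and Huh7 points of JUN, JUNB, EGR1 and IER2 lie on opposite sides of 0, and both points of JUND lie below it, at -0.54 and -0.49.

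Among the FOS family genes, FOS (probe ILMN_1669523), which encodes the prototype partner of JUN, had the largest change of the members in SK-Hep1. It read 10.57 and 10.55 on control arrays of SK-Hep1 versus 9.51 and 9.74 on its knockdown arrays, and 10.09 and 10.05 on control arrays of Huh7 versus 9.91 and 9.86 on its knockdown arrays. Both knockdown arrays lay below both controls in each line, by a wide margin in SK-Hep1 and a narrow one in Huh7. With 2 arrays per group such an order alone carries little weight for any gene, and its share over all genes was not counted. The SK-Hep1 difference was -0.93 ± 0.0815 (adjusted p = 8.55e-05), a 1.91-fold fall that left 52.3% of the control signal and ranked 72 of 12384 genes by size. In Huh7 it was -0.18 ± 0.0815 (adjusted p = 0.104), with a 95% interval from -0.36 to 0.00042. That value passed when SK-Hep1 knockdown replicate 11 or 12 was left out (adjusted p = 0.035 for each), and with Huh7 fitted alone (adjusted p = 0.0313).

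The 250 bases before the FOS start site are shown because FOS led the fall in SK-Hep1. Sequences here are from RefSeq on GRCh38.p14, and capitals mark matches on either strand to the AP-1 site TGANTCA, the cyclic AMP response element (CRE) core TGACG, the EGR core GCGNGGG or the CArG box, the core of the serum response element.
FOS promoter (chr14:75278578-75278827, plus strand): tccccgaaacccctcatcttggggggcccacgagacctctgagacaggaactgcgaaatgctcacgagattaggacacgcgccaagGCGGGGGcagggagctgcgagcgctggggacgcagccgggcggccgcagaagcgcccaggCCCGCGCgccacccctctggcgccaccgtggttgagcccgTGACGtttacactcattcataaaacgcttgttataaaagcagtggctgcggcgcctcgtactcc
This stretch held 1 CRE core, beginning 64 bases before the start, and 2 EGR cores, beginning 164 and 104 bases before it, and no match to the other motifs. Bases further upstream were not searched, so the result does not show that FOS lacks a CArG box.

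FOSL1 (ILMN_1771841) and FOSL2 (ILMN_1725175) encode the FOS-related proteins FRA1 and FRA2, which lack the strong activation domain of FOS. FOSL1 read 10.02 and 9.78 on control arrays of SK-Hep1 versus 9.63 and 9.72 on its knockdown arrays, and 9.56 and 9.50 on control arrays of Huh7 versus 9.78 and 9.87 on its knockdown arrays. Knockdown arrays lay below the controls in SK-Hep1, where the higher knockdown value nearly met the lower control, and above them in Huh7. FOSL1 rose in Huh7 by 0.30 ± 0.0866 (1.23-fold, adjusted p = 0.0198) and was at -0.23 in SK-Hep1 (adjusted p = 0.101). Leaving out Huh7 control replicate 1 (adjusted p = 0.0658) or 2 (0.118), or knockdown replicate 4 (0.126), ended the Huh7 call. Without SK-Hep1 control replicate 2 the SK-Hep1 value was -0.34 and passed (adjusted p = 0.0438), and without control replicate 1 it was -0.11.

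FOSL2 read 8.20 and 8.28 on control arrays of SK-Hep1 versus 8.01 and 8.07 on its knockdown arrays, and 8.09 and 7.97 on control arrays of Huh7 versus 8.09 and 8.31 on its knockdown arrays. The groups did not overlap in either line, but in Huh7 the lower knockdown array was level with the higher control. Neither difference passed the threshold, with -0.20 ± 0.0865 (adjusted p = 0.143) in SK-Hep1 and 0.17 ± 0.0865 (adjusted p = 0.136) in Huh7. By the mean over the 8 arrays, FOSL2 and JUNB were the members nearest to the background limit of 7.006 on the log2 scale. If background is part of these values, their differences are understated. For any gene, this limit is not a test of detection within a line, since levels are not comparable between lines.

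Among the JUN family genes, JUN (ILMN_1806023) encodes the main activating subunit, which is itself an AP-1 target. It read 12.29 and 12.38 on control arrays of SK-Hep1 versus 12.05 and 12.04 on its knockdown arrays, and 11.95 and 11.97 on control arrays of Huh7 versus 12.25 and 12.38 on its knockdown arrays. The groups stood apart in both lines, in opposite order. JUN fell by 0.29 ± 0.0717 in SK-Hep1 (1.22-fold, adjusted p = 0.0212) and rose by 0.35 ± 0.0717 in Huh7 (1.28-fold, adjusted p = 0.00338). Leaving out SK-Hep1 control replicate 1 (adjusted p = 0.0517) or 2 (0.105), or knockdown replicate 12 (0.0522), ended the call of the fall, nor did it pass with SK-Hep1 fitted alone (0.0734).

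JUNB (ILMN_2086077) encodes a JUN protein that can restrain JUN as well as activate. It read 8.31 and 8.22 on control arrays of SK-Hep1 versus 7.66 and 7.85 on its knockdown arrays, and 7.74 and 7.77 on control arrays of Huh7 versus 8.22 and 8.24 on its knockdown arrays. The groups were far apart in each line compared with the gaps between replicates. JUNB fell by 0.51 ± 0.078 in SK-Hep1 (1.43-fold, adjusted p = 0.00208) and rose by 0.47 ± 0.078 in Huh7 (1.39-fold, adjusted p = 0.00106). Both calls held when any 1 array was left out (adjusted p of at most 0.0264 in SK-Hep1 and 0.0141 in Huh7).

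JUND (ILMN_1810214) encodes the JUN protein that is widely expressed in resting cells. It read 14.19 and 14.32 on control arrays of SK-Hep1 versus 13.51 and 13.92 on its knockdown arrays, and 14.25 and 14.19 on control arrays of Huh7 versus 13.73 and 13.73 on its knockdown arrays. Knockdown arrays were lower in both lines, and the SK-Hep1 knockdown pair had the widest gap between replicates of any member, 0.404. JUND fell by 0.54 ± 0.114 in SK-Hep1 (1.45-fold, adjusted p = 0.0107) and by 0.49 ± 0.114 in Huh7 (1.41-fold, adjusted p = 0.0067). Leaving out knockdown replicate 12 gave -0.74 in SK-Hep1, leaving out replicate 11 gave -0.33, and the call was lost without control replicate 2 (-0.47, adjusted p = 0.0793). In Huh7 the call held when any 1 array was left out, with adjusted p of at most 0.0499.

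The promoters of JUNB and JUND are shown because the genes moved apart in Huh7 although both fell in SK-Hep1.
JUNB promoter (chr19:12791236-12791485, plus strand): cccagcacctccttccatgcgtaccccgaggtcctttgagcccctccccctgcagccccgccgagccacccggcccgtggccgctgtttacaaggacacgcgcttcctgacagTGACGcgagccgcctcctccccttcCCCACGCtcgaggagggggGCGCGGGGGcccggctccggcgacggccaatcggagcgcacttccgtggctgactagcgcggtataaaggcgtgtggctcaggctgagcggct
JUND promoter (chr19:18281623-18281872, minus strand): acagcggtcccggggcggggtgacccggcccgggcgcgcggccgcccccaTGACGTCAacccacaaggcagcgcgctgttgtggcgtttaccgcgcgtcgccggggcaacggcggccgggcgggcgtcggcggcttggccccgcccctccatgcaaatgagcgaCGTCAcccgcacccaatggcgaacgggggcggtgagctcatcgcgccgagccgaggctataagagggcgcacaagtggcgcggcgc
The JUNB stretch held 1 CRE core, beginning 137 bases before the start, and 3 EGR cores, of which the pair beginning 93 and 91 bases before the start overlap. The JUND stretch held 3 CRE cores and no EGR core, and those beginning 200 and 197 bases before the start overlap on opposite strands to form a palindrome. The JUN stretch, which is not shown, held no EGR core either, although JUN fell in SK-Hep1 and rose in Huh7 as JUNB did. Whether these motifs bear on the direction of change was not tested.

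EGR1 (ILMN_1762899) encodes a zinc finger factor that serum and growth factors induce through the serum response factor. It read 11.12 and 10.999 on control arrays of SK-Hep1 versus 10.56 and 10.68 on its knockdown arrays, and 10.43 and 10.56 on control arrays of Huh7 versus 10.93 and 10.93 on its knockdown arrays. The groups stood apart in both lines, in opposite order, by more than the replicate gaps. EGR1 fell by 0.43 ± 0.078 in SK-Hep1 (1.35-fold, adjusted p = 0.00474) and rose by 0.43 ± 0.078 in Huh7 (1.35-fold, adjusted p = 0.00187). Both calls held when any 1 array was left out (adjusted p of at most 0.0467 and 0.027).

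The EGR1 promoter is shown because it was the only member promoter here with a CArG box within the stretch searched. Bases further upstream were not searched for any member, so a box there would have been missed.
EGR1 promoter (chr5:138465229-138465478, plus strand): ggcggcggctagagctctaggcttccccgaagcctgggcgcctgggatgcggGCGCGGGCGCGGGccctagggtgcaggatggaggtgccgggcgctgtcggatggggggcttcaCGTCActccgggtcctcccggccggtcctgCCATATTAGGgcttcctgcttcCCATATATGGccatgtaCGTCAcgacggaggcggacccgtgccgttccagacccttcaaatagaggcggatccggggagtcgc
It held 2 CArG boxes, beginning 105 and 83 bases before the start, 2 CRE cores and 2 overlapping EGR cores. Of the 7 members with a promoter sequence (FOS, FOSL2, JUN, JUNB, JUND, EGR1 and IER2), all 7 held a CRE core, as did 21.2% of 35116 promoter stretches of the same length. An EGR core was in 5 of 7 against 31.4%, a CArG box in 1 of 7 against 1.16%, and the AP-1 site in 0 of 7 against 6.57%. For AP-1 only the form TGANTCA was searched, so this count does not show that these promoters lack other AP-1 elements. These matches are of letters only and show no binding.

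IER2 (ILMN_1700584) encodes a nuclear protein induced by growth factors, and IER3 (ILMN_1682717), also called IEX-1, a stress-inducible regulator of cell survival and ERK signalling. IER2 read 8.95 and 8.96 on control arrays of SK-Hep1 versus 8.59 and 8.54 on its knockdown arrays, and 8.57 and 8.65 on control arrays of Huh7 versus 8.91 and 8.77 on its knockdown arrays. Its groups stood apart in opposite order in the 2 lines. IER2 fell by 0.39 ± 0.0726 in SK-Hep1 (1.31-fold, adjusted p = 0.00577) and rose by 0.23 ± 0.0726 in Huh7 (1.17-fold, adjusted p = 0.0282). Leaving out Huh7 control replicate 1 (adjusted p = 0.181) or 2 (0.0655), or knockdown replicate 3 (0.207), ended the Huh7 call.

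IER3 read 13.47 and 13.45 on control arrays of SK-Hep1 versus 13.55 and 13.62 on its knockdown arrays, and 13.36 and 13.36 on control arrays of Huh7 versus 13.56 and 13.56 on its knockdown arrays. It was the 1 member with a difference above 0 in both lines. The rise of 0.20 ± 0.0644 in Huh7 was small (1.15-fold, adjusted p = 0.0331), and the SK-Hep1 value was 0.13 ± 0.0644 (adjusted p = 0.2). The Huh7 call was lost without any 1 Huh7 array (adjusted p = 0.123 to 0.138), with quantile normalization within each line (0.15, adjusted p = 0.0873) and with no filter on dim probes (adjusted p = 0.0694).

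The number of members past the threshold in Huh7 was 7 with all arrays, 4 without Huh7 control replicate 1 and 4 without Huh7 control replicate 2. In SK-Hep1 it was 5 or 6 whichever array was left out. The SK-Hep1 knockdown arrays were not alike: SMARCB1 itself read lower on replicate 11 than on replicate 12, and so did 7 of 9 members (all but JUN and IER2), against 48.3% of all genes. Whether this goes with the degree of knockdown was not tested.

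**Figure D3:**
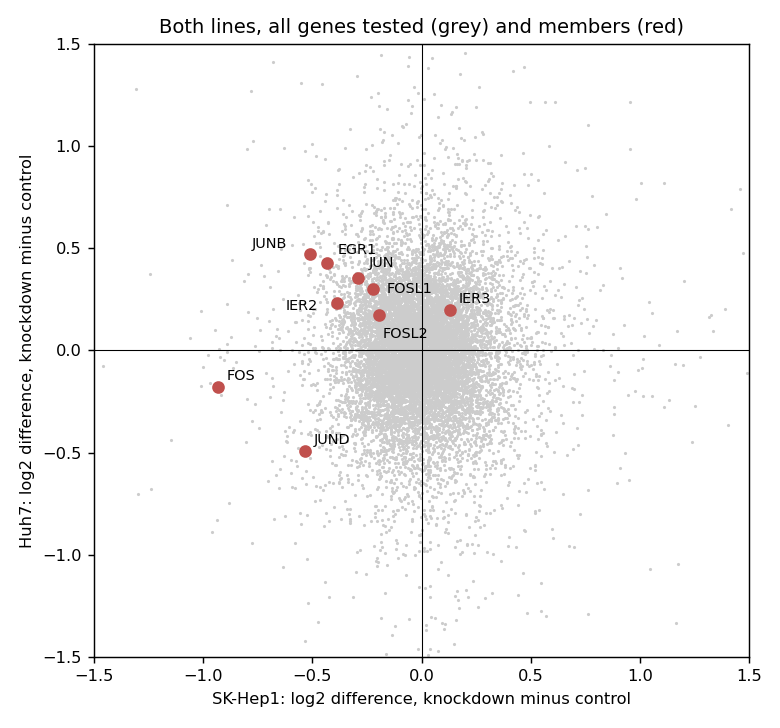
Log2 difference, knockdown minus control, in SK-Hep1 (x axis) and Huh7 (y axis) for all genes tested (grey) and the 9 members (red), with axes ended at 1.5, which leaves 53 genes outside. JUNB, EGR1, JUN, IER2, FOSL1 and FOSL2 lie in the upper left, FOS and JUND in the lower left and IER3 in the upper right.

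Related genes were taken from lists by role, drawn up with earlier results of these data known. Their shares beside those of all genes are therefore descriptive. Of 13 other AP-1 family genes 10 were tested, and 2 fell and 0 rose in SK-Hep1, while 0 fell and 2 rose in Huh7. That is 20.0% called in each line, where 16.9% of all genes were called in SK-Hep1 and 39.1% in Huh7. The medians were -0.042 and 0.083. ATF3, a stress-induced member that can repress, fell in SK-Hep1 from 11.30 and 11.20 to 9.80 and 10.21 (-1.24 ± 0.115, adjusted p = 0.000113). In Huh7 it was higher after knockdown, at 10.71 and 10.81 against 10.43 and 10.35 (0.37 ± 0.115, adjusted p = 0.0256), but its 2 probes ran from -0.09 to 0.37 there and the call was lost without any 1 Huh7 array (adjusted p = 0.0611 to 0.136). FOSB, a paralogue of FOS, fell in SK-Hep1 from 10.54 and 10.69 to 9.75 and 9.99 (-0.74 ± 0.0891, adjusted p = 0.000513). In Huh7 FOSB read 10.11 and 10.12 against 10.14 and 10.09, with no change detected (adjusted p = 0.988). BATF, a lymphoid partner of JUN proteins, rose in Huh7 (0.44 ± 0.072, adjusted p = 0.00107) from 6.96 and 6.93, below the background limit, to 7.42 and 7.34. Without any 1 Huh7 array 1 gene of this list was higher in Huh7, and 1 was lower without SK-Hep1 knockdown replicate 11 or 12. In SK-Hep1 1 gene was higher without knockdown replicate 11.

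Of 29 other immediate early genes 23 were tested (not EGR3, EGR4, NR4A1, NR4A3, BTG2 and ARC). In SK-Hep1 10 fell and 2 rose, with a median of -0.23, and in Huh7 8 rose and 4 fell, with a median of -0.011. That is 52.2% called in each line, against 16.9% of all genes in SK-Hep1 and 39.1% in Huh7. KLF4, a KLF family factor, fell in SK-Hep1 from 9.50 and 9.50 to 8.13 and 8.27 (-1.30 ± 0.0786, adjusted p = 7.15e-06) and in Huh7 from 9.27 and 9.11 to 8.50 and 8.48 (-0.70 ± 0.0786, adjusted p = 0.000105). Its other probe gave -0.82 and -0.14. GADD45B, a stress-induced activator of p38 signalling, fell in SK-Hep1 by 0.98 (adjusted p = 0.000144), and NFKBIA, the inhibitor of NF-kB, by 0.54 (adjusted p = 0.00202). NFKBIA rose by 0.71 in Huh7 (adjusted p = 0.000121). The largest rises in Huh7 were in PHLDA1, an induced pleckstrin-like gene (1.34 on its brightest probe and 0.37 on the other, adjusted p = 8.3e-07), DUSP1, a MAP kinase phosphatase (0.91, adjusted p = 2.66e-05), and RHOB, a small GTPase (0.79, adjusted p = 8.85e-05). DUSP1 read 12.64 and 12.51 in Huh7 controls against 13.56 and 13.41 after knockdown. SOCS3, which limits JAK-STAT signalling, went the other way on its brightest probe. That probe rose by 0.56 (adjusted p = 0.00403) in SK-Hep1 and fell by 0.41 (adjusted p = 0.0077) in Huh7. The other SOCS3 probe gave 0.41 in SK-Hep1 and -0.06 in Huh7. ZFP36, which encodes an mRNA decay factor, fell by 0.38 in Huh7 (adjusted p = 0.016), and CSRNP1 rose by 0.33 in SK-Hep1 (adjusted p = 0.0404).

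The number of these genes that fell in SK-Hep1 was 4 without SK-Hep1 control replicate 1 or control replicate 2, and 6 without SK-Hep1 knockdown replicate 12. The number that rose in SK-Hep1 was 1 without control replicate 1 or 2, knockdown replicate 12, or Huh7 control replicate 1 or 2, and the number that fell in Huh7 was 2 without Huh7 control replicate 2. CSRNP1 lost its call without any 1 SK-Hep1 array or either Huh7 control (adjusted p = 0.0661 to 0.192), ZFP36 without Huh7 control replicate 1 or 2 or knockdown replicate 3 (0.0537 to 0.104), and SOCS3 in Huh7 without control replicate 2 (0.0727) or knockdown replicate 4 (0.0753).

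Of 19 upstream kinases and factors 16 were tested, and in SK-Hep1 1 rose and 0 fell, with a median of 0.029. In Huh7 5 rose and 3 fell, with a median of -0.018. The shares called, 6.25% and 50.0%, stand against 16.9% and 39.1% of all genes. The 1 that rose in SK-Hep1 was RPS6KA5, which encodes the kinase MSK1 (0.54 ± 0.108, adjusted p = 0.00851). SRF, the serum response factor gene, rose in Huh7 from 11.52 and 11.57 to 11.80 and 11.88 (0.29 ± 0.0797, adjusted p = 0.0149), as did its coactivator genes MRTFA (0.35, adjusted p = 0.0304) and MRTFB (0.35, adjusted p = 0.0412). MAPK3, the gene of the ERK1 kinase, fell in Huh7 by 0.27 (adjusted p = 0.0108), CREB1 by 0.24 on its brightest probe (adjusted p = 0.0331) and the JNK2 gene MAPK9 by 0.24 (adjusted p = 0.0334). The 5 probes of CREB1 ran from -0.24 to 0.21 in Huh7, and the mean of its probes was at 0.0054 (adjusted p = 0.957). With any 1 Huh7 array left out, 0 to 2 of these genes rose and 0 or 1 fell in Huh7. SRF lost its call without Huh7 control replicate 1 (adjusted p = 0.0971) or 2 (0.0569) or knockdown replicate 4 (0.105), and MAPK3 without control replicate 1 (0.08) or knockdown replicate 3 (0.0957). MRTFA and MAPK9 lost theirs without any 1 Huh7 array (0.0651 to 0.206), CREB1 without either control or knockdown replicate 4 (0.0834 to 0.251) and MRTFB without SK-Hep1 control replicate 1 or 2, Huh7 control replicate 2 or either Huh7 knockdown array (0.0581 to 0.259). RPS6KA5 lost its call without SK-Hep1 control replicate 1 (0.0638) and was at 0.34 without SK-Hep1 knockdown replicate 12, and 1 gene fell in SK-Hep1 without knockdown replicate 11.

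Of 9 partners and repressors of the pathway 8 were tested (not DUSP4), and in Huh7 4 fell, 0 rose and 4 did not pass, with a median of -0.26. That is 50.0% called, where 39.1% of all genes were called and 19.6% fell. DUSP5, a nuclear ERK phosphatase, read 12.76 and 12.77 in Huh7 controls against 11.51 and 11.46 after knockdown (-1.29 ± 0.095, adjusted p = 7.17e-06). DUSP6, a cytoplasmic ERK phosphatase, fell by 0.78 (adjusted p = 0.000177), SPRY4, a Sprouty inhibitor, by 0.50 (adjusted p = 0.00239; -0.50 to -0.03 over 3 probes) and NAB2, a corepressor that binds EGR proteins, by 0.42 (adjusted p = 0.00171). In SK-Hep1 2 rose and 0 fell, 25% against 16.9% of all genes, with a median of 0.023. DUSP5 rose by 0.48 (adjusted p = 0.00776) and NAB2 by 0.30 (adjusted p = 0.0216). NAB2 and EGR1 were both called in each line, and within each line in opposite directions. NAB2 lost its SK-Hep1 call without SK-Hep1 control replicate 1 (adjusted p = 0.0735) or 2 (0.0973) or knockdown replicate 12 (0.0599), and DUSP5 without control replicate 1 (0.0639), so the number that rose there was 0 without control replicate 1 and 1 without control replicate 2 or knockdown replicate 12.

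Of 24 genes known as AP-1 targets, 16 were tested. In SK-Hep1 8 rose and 0 fell, with a median of 0.32, and in Huh7 7 rose and 1 fell, with a median of 0.14. That is 50.0% called in each line, against 16.9% of all genes in SK-Hep1 and 39.1% in Huh7. The matrix protease gene MMP9 rose in SK-Hep1 from 6.87 and 6.95 to 8.45 and 8.04 (1.33 ± 0.122, adjusted p = 0.000111), and MMP3 from 7.03 and 6.68 to 7.62 and 7.82 (0.87 ± 0.145, adjusted p = 0.00349). The control values of both lay at or below the background limit of 7.006, apart from one at 7.03. CCL2, a monocyte chemokine, rose in both lines, by 2.12 ± 0.267 in Huh7 (adjusted p = 0.000219) and less firmly in SK-Hep1, by 0.93 ± 0.267 (adjusted p = 0.0386). Its SK-Hep1 knockdown arrays read 10.02 and 8.86, a wide gap, against 8.43 and 8.60 in controls. Leaving out knockdown replicate 11 gave 0.35 in SK-Hep1, and leaving out replicate 12 gave 1.51. In Huh7 the chemokine gene CXCL8 rose by 1.76 ± 0.128 (adjusted p = 6.6e-06), and CD44, a hyaluronan receptor, from 10.50 and 10.53 to 11.92 and 11.97 (1.43 ± 0.068, adjusted p = 5.97e-07; 0.21 to 1.43 over 3 probes). HMGA1, an architectural chromatin protein, was the 1 that fell in Huh7, by 0.21 (adjusted p = 0.0497), and its call was lost without any 1 Huh7 array (0.104 to 0.22). The CCL2 call in SK-Hep1 was lost without either SK-Hep1 control or any 1 Huh7 array (0.0545 to 0.186), and 5 of the list rose in SK-Hep1 without SK-Hep1 control replicate 1 or 2, with 1 lower without either SK-Hep1 knockdown array.

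**Figure D4:**
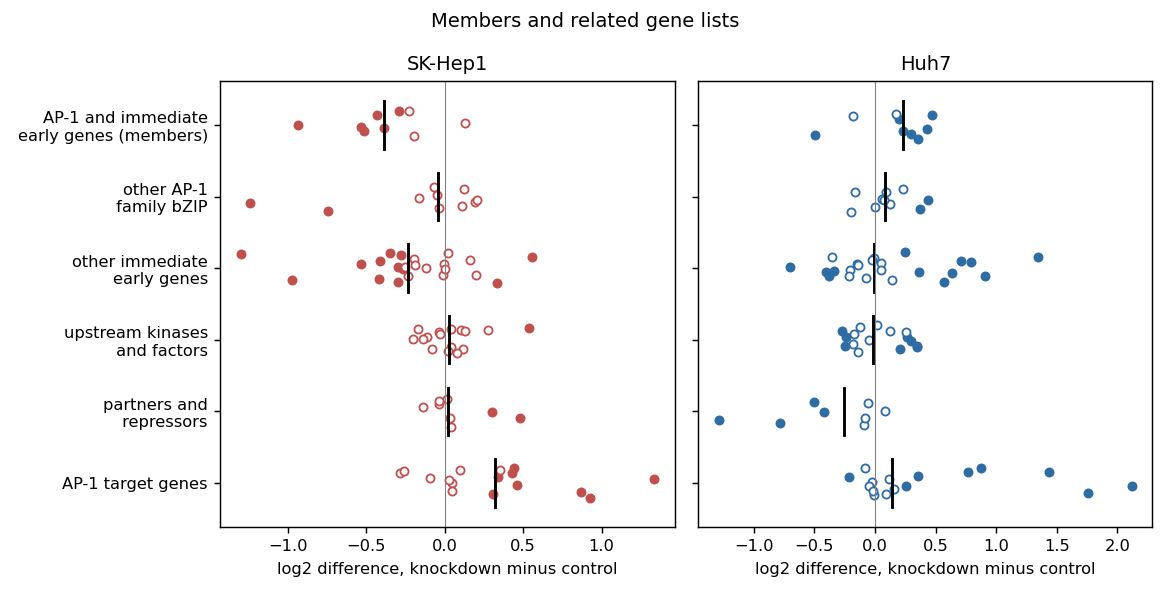
Log2 difference, knockdown minus control (x axis), of each tested gene of the 9 members and 5 related lists (rows) in SK-Hep1 (left) and Huh7 (right), filled where the adjusted p is under 0.05, with the median of each list as a black bar and vertical scatter for legibility only. The member medians lie at -0.39 and 0.23, and the AP-1 target medians at 0.32 and 0.14.

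For the member with the largest change in each line, the genes with the most similar pattern over the 8 arrays were found by the root mean square distance, with values taken relative to the controls of each line. Nearest to FOS were CPA4, a carboxypeptidase gene (distance 0.0501), the calcium channel subunit gene CACNG6 (0.0721) and OLFML2A (0.0861), where the median distance of all genes was 0.497. CPA4 was at -0.97 in SK-Hep1 and -0.16 in Huh7. Nearest to JUND were HNRNPDL, an RNA-binding protein gene (0.0492), SRPX (0.0617) and ZNF695 (0.0634), where the median was 0.4. HNRNPDL read 10.89 and 10.92 on control arrays of SK-Hep1 versus 10.26 and 10.52 on its knockdown arrays, with the same order of the knockdown arrays as JUND.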

How the data were processed

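Gene expression was measured in SK-Hep1 and Huh7 liver cancer cells with and without stable SMARCB1 knockdown, on 8 arrays in 4 groups of 2, grouped by title. The labels' protocols give 0.55 µg of total RNA as input for the biotin-labelled cRNA. GenomeStudio 2011.1 was used, per the submitters' processing notes. The authors' deposited log2 intensities (47319 probes) were analysed. Array medians lay between 6.931 and 6.934. No source used here gives the normalization, background treatment or any adjustment for cell line. The non-normalized table was left out, because none of its 16 value columns could be matched to a label.

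Probes were named through the platform annotation (30110 with 1 symbol, 8 with several, 17201 with none), and 30071 matched the RefSeq gene table. Probes were kept above 7.006, the 95th percentile of 610 probes for beta-defensins, keratin-associated proteins and smell, taste or pheromone receptors, and the brightest probe stood for its gene (12384 genes). limma 3.58.1 in R 4.3.3 was fitted with 4 residual degrees of freedom, and tests were two-sided. The fit was tested on simulated data. Precision is limited by the 2 arrays per group. Members, lists and the filter were chosen with earlier results of these data known. From each list and line up to 3 rises and 3 falls were named, the largest among genes past the threshold whose groups did not overlap. Promoter stretches were the 250 bases before each start, searched on both strands. Alternatives were the filter, the probe summary, normalization, array weights, an intensity trend, each line alone and each array left out.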

Additional observations from a re-analysis of the deposited data

Results flagged for a closer look

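Each gene here was noted because its signed knockdown difference was not the same in the 2 lines by the test of that contrast (limma, adjusted p under 0.05). Values are the difference in SK-Hep1 minus that in Huh7, on the log2 scale, for all members and list genes that passed. Of the members these were JUNB (-0.99), EGR1 (-0.86), FOS (-0.75), JUN (-0.64), IER2 (-0.62), FOSL1 (-0.52) and FOSL2 (-0.37). Of the other AP-1 family genes they were ATF3 (-1.62), FOSB (-0.74) and BATF (-0.31). Of the other immediate early genes 12 were lower, PHLDA1 (-1.64), NFKBIA (-1.24), GADD45B (-0.95), CCN1 (-0.92), RHOB (-0.80), DUSP1 (-0.71), KLF2 (-0.62), KLF4 (-0.60), SGK1 (-0.55), KLF10 (-0.54), KLF6 (-0.34) and MCL1 (-0.33), and SOCS3 was higher (0.96). Of the kinases and factors upstream they were MRTFA (-0.48), ELK4 (-0.41), SRF (-0.41), MAPK3 (0.40) and RPS6KA5 (0.59).

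The partners and repressors that passed were DUSP5 (1.77), DUSP6 (0.82), NAB2 (0.72) and SPRY4 (0.46). Of the AP-1 targets CXCL8 (-1.73), CD44 (-1.38), CCL2 (-1.19) and GJA1 (-1.14) were lower and MMP9 (1.24), MMP3 (0.89), PLAUR (0.50) and HBEGF (0.36) higher in SK-Hep1 than in Huh7. The immune markers CD14 (2.11) and CD68 (0.76) were higher. Adjusted p-values of all these ran from 5.39e-06 (PHLDA1) to 0.0415 (FOSL2), and 31.4% of all genes passed.

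Calls that were lost without 1 array were those of FOSL2 (adjusted p up to 0.167), BATF (0.137), MCL1 (0.132), HBEGF (0.128), MRTFA (0.127), KLF6 (0.12), CCL2 (0.112), SPRY4 (0.0974), SRF (0.081), ELK4 (0.0674), RPS6KA5 (0.0638) and MAPK3 (0.0555). For MAPK3 this was without Huh7 control replicate 1 or knockdown replicate 3, for RPS6KA5 without SK-Hep1 control replicate 1 or Huh7 control replicate 2, for ELK4 without Huh7 control replicate 2 or knockdown replicate 4, and for SRF without SK-Hep1 control replicate 1, either Huh7 control or Huh7 knockdown replicate 4. KLF6 lost its call without SK-Hep1 control replicate 2, Huh7 control replicate 1 or either Huh7 knockdown array, and HBEGF without either SK-Hep1 control, SK-Hep1 knockdown replicate 12, Huh7 control replicate 2 or Huh7 knockdown replicate 3. BATF lost its call without any 1 array but SK-Hep1 knockdown replicate 12, MRTFA and MCL1 without any but SK-Hep1 knockdown replicate 11, and SPRY4 without either SK-Hep1 control, Huh7 control replicate 1 or either Huh7 knockdown array. MRTFA was at -0.29 without SK-Hep1 knockdown replicate 12. CCL2 lost its call without any array but the SK-Hep1 knockdown arrays, and leaving out SK-Hep1 knockdown replicate 11 gave -1.77 where leaving out replicate 12 gave -0.61. With the mean of a gene's probes SPRY4 was at 0.24 (adjusted p = 0.0871) and ELK4 at -0.28 (adjusted p = 0.0785), neither past the threshold.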

How the results depend on the processing

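JUNB and EGR1 kept their calls and directions in both lines and between lines under all alternatives run, as did FOS in SK-Hep1 and between lines. The number of genes past the threshold in SK-Hep1, 2089, was 1087 with each line fitted alone and 1200 with array weights. With 1 array left out it ran from 928 to 2446, that of Huh7 (4843) from 2882 to 5607, that for the difference between lines (3890) from 2533 to 4500, and the members past the threshold in Huh7 (7) from 4 to 8. A group with 1 array left was assumed to vary like the others, and fewer arrays give fewer residual degrees of freedom. The difference of JUND between lines, which was not called, ran from -0.24 to 0.16. CREB1 in Huh7 turned from -0.24 to 0.0054 with the mean of its probes. JUN in SK-Hep1 lost its call with array weights (adjusted p = 0.0664) or SK-Hep1 fitted alone. Its difference stayed at -0.29, while its SE rose from 0.0717 to 0.0898 and 0.0897. FOS in Huh7 gained a call with array weights (0.0285), where the difference stayed at -0.18 and the SE fell from 0.0815 to 0.0613. Why the spread was not the same in the lines was not tested. FOSL2 between lines lost its call with no filter (0.0595), every probe fitted (0.0509) or array weights (0.0568). Background correction of the earlier signals and a slide term were not run, since those columns could not be matched and no slide is given. No paired analysis was possible because the groups compared share no replicate numbers. If background is part of the values, differences of dim genes such as JUNB and FOSL2 are understated.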

Other observations

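Among the other immediate early genes, 5 of 23 were called in both lines in opposite directions, against 4.3% of all genes. Besides PHLDA1, NFKBIA and SOCS3 these were CCN1, a matricellular protein gene, and KLF10, a TGF-beta-induced factor, which were named here after their values were seen. CCN1 was at -0.35 ± 0.0915 (adjusted p = 0.0255) in SK-Hep1 and at 0.57 ± 0.0915 (adjusted p = 0.000928) in Huh7. KLF10 was at -0.30 ± 0.0706 (adjusted p = 0.0184) and 0.24 ± 0.0706 (adjusted p = 0.0196). With the mean of a gene's probes, KLF10 (-0.20, adjusted p = 0.0622) and PHLDA1 (-0.18, adjusted p = 0.075) were not called in SK-Hep1. In the same direction were KLF4, ZFP36 and TIPARP, the last at -0.28 and -0.33 (adjusted p = 0.02 and 0.00359). Of the AP-1 targets IL6 (0.46 and 0.36, adjusted p = 0.00967 and 0.0137) and SPP1 (0.43 and 0.26, adjusted p = 0.00395 and 0.0187) rose in both lines, as CCL2 did. Many of these calls were lost when 1 array was left out. A lost call did not always mean a smaller difference: that of ZFP36 in SK-Hep1 was -0.42 with all arrays and -0.46 without control replicate 2. In SK-Hep1, leaving out either control ended those of CCN1, KLF10, TIPARP, PHLDA1 and ZFP36 (adjusted p = 0.0591 to 0.124), as did knockdown replicate 12 for KLF10, TIPARP and ZFP36 (0.053 to 0.0777), knockdown replicate 11 for CCN1 (-0.21, adjusted p = 0.083) and control replicate 2 for IL6 (0.0729). In Huh7, leaving out either control or knockdown replicate 3 ended those of KLF10, IL6 and SPP1 (0.0511 to 0.16), and knockdown replicate 4 that of SPP1 (0.0952).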
